A study of Mus musculus with 6 samples.

Results

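Semaphorins are guidance proteins that share an extracellular sema domain, and plexins are their main receptors. All 20 semaphorin genes, all 9 plexin genes and the 2 plexin-domain genes Plxdc1 and Plxdc2 of the mouse, 31 of the 47643 genes counted, were followed in the entire aorta of Apoe-/- mice given erythropoietin (EPO) or saline. The rule takes whole gene families by symbol and uses no measured value, although the families were picked with earlier results of these data known. Every member passed the filter on low counts. The Apoe-/- strain lacks apolipoprotein E and develops high plasma cholesterol and atherosclerosis. It is shared by both groups, and wild-type mice, which the series title also names, were not analysed here. The EPO group received recombinant human EPO, the hormone that drives red cell production, by intraperitoneal injection at 5000 IU/kg per day, called a medium dose in the design text. Saline was injected the same way in the Vehicle group, and treatment lasted 4 weeks in both. Each group had 3 libraries, and the age and sex of the mice and whether each library came from a separate animal are not given in the labels, so a p-value here reflects library-to-library spread, which may be technical. The series title links EPO to abdominal aortic aneurysm, vessel growth and inflammatory infiltration, and the design holds 1 comparison, EPO against Vehicle.

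Class 3 semaphorins are secreted and mostly signal through plexins of the A type together with a neuropilin coreceptor, whereas Sema3e can bind Plxnd1 directly. Semaphorins of classes 4, 5 and 6 span the membrane, and Sema7a is held at the surface by a lipid anchor. The cytoplasmic part of a plexin acts on small GTPases, which loosens adhesion and remodels the cytoskeleton of the responding cell. In vessels these signals steer endothelial sprouts, nerves and neural crest cells, and several members also act between immune cells.

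Total counts ran from 23278649 to 38502430 per library. On log2 CPM (counts scaled by library size), component 1 of a principal component analysis held 62.2% of the variance and separated the groups, and component 2 (16%) placed EPO 1 away from its group. Markers of several cell types moved with the groups. The summed level of 10 contractile smooth muscle markers was 21550 to 30746 CPM in Vehicle and 7541 to 10221 CPM in EPO, with 10 of 10 lower. The 10 fibroblast markers summed to 13958 to 17335 and 59443 to 78675 CPM (6 higher). Col1a1, Col1a2 and Col3a1 made up most of that sum in both groups (log2 fold changes 2.90, 2.08 and 2.37). Lum, Postn and Fap were also called higher. Pdgfra, Dpt, Dcn and Pi16 were not called (0.40, 0.47, -0.13 and -0.28). The 10 macrophage markers summed to 1951 to 3941 and 4145 to 9586 CPM. The 10 skeletal muscle markers summed to 7.7 to 16 and 335 to 2783 CPM (10 higher). Of the macrophage markers Adgre1 was higher and Cd163 lower, named after their values were seen. The summed macrophage level was 9586 CPM in EPO 1, 4572 CPM in EPO 2 and 4145 CPM in EPO 3. Blood endothelial markers (10 genes, with Cdh5 and Robo4 higher and Pecam1 lower) summed to 1480 to 1644 and 1193 to 1833 CPM. Lymphatic endothelial markers (6 genes, 5 higher) summed to 99.7 to 155 and 198 to 342 CPM. The remaining lymphatic marker, Lyve1, leaned lower and was not called (log2 fold change -0.57). Schwann cell and neuron markers (12 genes, 1 lower) summed to 388 to 638 and 184 to 225 CPM. Markers of T and B lymphocytes (10 genes, 2 higher) summed to 60.4 to 85.6 and 132 to 185 CPM. That list includes Ptprc, which leukocytes in general express. Markers of white adipocytes (10 genes, 6 lower) summed to 3607 to 7942 and 2149 to 2736 CPM. Those of erythroid cells (7 genes) summed to 759 to 1551 and 492 to 1464 CPM. Those of dividing cells (8 genes, 8 higher) summed to 28.2 to 46.7 and 184 to 233 CPM. No marker in these lists was at 0 in every library of a group. In bulk tissue fewer cells of a type and less RNA per cell cannot be told apart, and the part of these markers in the results below was not tested.

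With EPO, 10 of the 31 genes were higher and 6 lower by edgeR (quasi-likelihood test, adjusted p under 0.05), where 12.9% of all 16522 genes tested were higher and 10.1% lower, 23% in all. The higher genes were Sema3g, Sema4d, Sema6a, Sema6b, Sema6d, Sema7a, Plxna1, Plxnb2, Plxnc1 and Plxnd1. The lower genes were Sema3b, Sema3c, Sema3d, Sema3e, Sema5a and Plxna4. By class, 4 of 7 secreted class 3 genes fell and 1 rose, 1 of 6 class 4 genes rose, 1 of 2 class 5 genes fell, 3 of 4 class 6 genes rose, the class 7 gene rose, and of 9 plexins 4 rose and 1 fell. The median log2 fold change was 0.39 over the 31 genes, -0.61 over class 3, 0.31 over class 4, 0.92 over class 6 and 0.67 over the plexins, beside 0.01 over all genes tested. CPM values did not overlap between the groups for 15 genes on the higher and 8 on the lower side, where this held for 22.9% and 21% of all genes, 43.8% together. Of the 31 genes, 8 were called higher and 4 called lower with a change of at least 2-fold, 12 in all, where 8.04% of all genes tested were called with such a change on the higher side and 13.6% in either direction. Leaving out Vehicle 1 gave 6 higher genes and leaving out Vehicle 2 gave 5. With EPO 1 and EPO 2 (highest in skeletal muscle markers) both left out, an alternative chosen after seeing the data, Sema3g, Sema4d, Sema6b, Sema7a and Plxnd1 stayed called higher and Sema3c, Sema3d and Sema5a lower. The log2 fold changes of Sema3g and Plxnd1 were then 0.73 and 0.84.

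**Figure D1:**
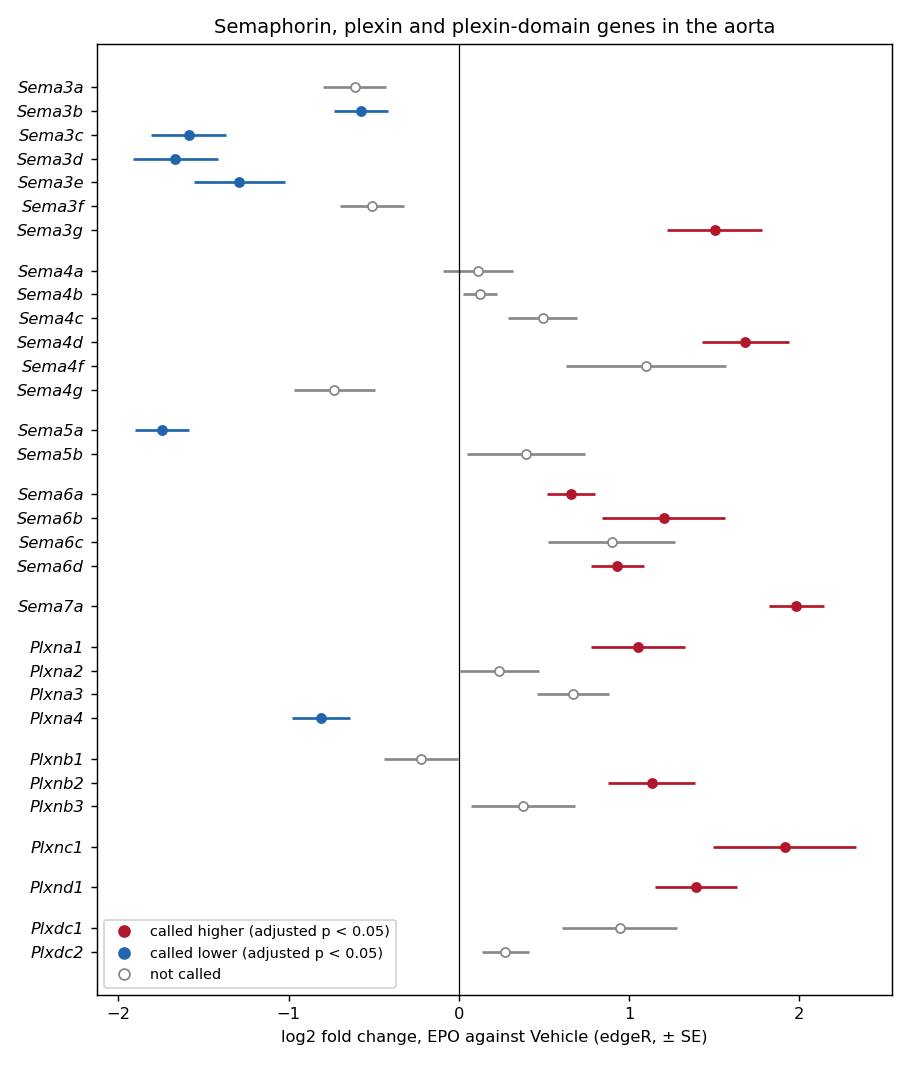
Log2 fold change of each of the 31 genes, EPO against Vehicle, from the edgeR fit, with bars of 1 SE; filled points passed an adjusted p under 0.05. Sema5a (-1.74) and Sema3d (-1.67) lie farthest to the left, and Sema7a (1.98) and Plxnc1 (1.91) farthest to the right.

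Among the secreted class 3 genes, Sema3c and Sema3d fell about equally. Sema3c, a ligand needed for septation of the cardiac outflow tract (chromosome 5, 17574281 to 17730268), stood at 132, 122 and 117 CPM in Vehicle 1, 2 and 3 and at 28.1, 43.1 and 52.2 CPM in EPO 1, 2 and 3. Every EPO library lay below every Vehicle library, and the level fell 3.00-fold (log2 fold change -1.59, SE 0.22, edgeR adjusted p = 0.00399). Sema3d, which guides cardiac neural crest and endothelial cells (chromosome 5, 12383385 to 12588948), stood at 81, 81.4 and 84.7 CPM in Vehicle and 16.6, 26.3 and 35 CPM in EPO. The Vehicle libraries were close together and all EPO libraries lower, a 3.17-fold fall (log2 fold change -1.67, SE 0.25, edgeR adjusted p = 0.00492). Sema3e, the ligand of Plxnd1 (chromosome 5, 14025276 to 14256689), was a low gene that fell 2.45-fold, from 6.82, 7.46 and 8.38 CPM to 2.23, 2.92 and 4.12 CPM (edgeR adjusted p = 0.0146). Its groups did not overlap, but without Vehicle 2 its adjusted p was 0.0507. In all 3 genes EPO 1 was the lowest library and EPO 3 the highest of the EPO group.

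Sema3b fell less. This gene, known as a tumour suppressor in lung (chromosome 9, 107597674 to 107609229), stood at 88.1, 74.5 and 77 CPM in Vehicle and 65.3, 46.4 and 49.4 CPM in EPO, without overlap between the groups. Its fall was 1.49-fold (log2 fold change -0.57, SE 0.16, edgeR adjusted p = 0.0385) and lost its call whenever a single library other than EPO 1 was left out (adjusted p from 0.0704 to 0.114). Its neighbour Sema3f, a repellent that acts through the neuropilin Nrp2, was the most abundant member per length of exon in Vehicle (35.5 CPM per kb) and stood at 208, 148 and 196 CPM in Vehicle and 157, 112 and 120 CPM in EPO. The groups overlapped and the log2 fold change of -0.51 did not pass (95% interval -0.95 to -0.07, edgeR adjusted p = 0.0897), although it did without EPO 1 (-0.68, adjusted p = 0.0288). Sema3a, the founding collapse factor of nerve growth cones, stood at 11.4, 13.5 and 13.4 CPM in Vehicle and 7.92, 7.1 and 10.1 CPM in EPO. Its libraries did not overlap, its log2 fold change was -0.61 with an edgeR adjusted p of 0.0511, and it passed without EPO 3 (0.0361), in DESeq2 (0.0228), in limma-voom (0.048) and with a filter of at least 1 CPM in 3 libraries (0.0469).

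Sema3g was the class 3 gene that rose. This ligand, known from arterial endothelium and fat (chromosome 14, 31217860 to 31230352), stood at 33.4, 29.9 and 29 CPM in Vehicle and at 116, 94.7 and 51 CPM in EPO. All EPO libraries lay above the Vehicle range, with EPO 3 less than the other two, and the level rose 2.84-fold (log2 fold change 1.5, SE 0.28, edgeR adjusted p = 0.00984). The other 6 class 3 genes had negative log2 fold changes, from -0.51 in Sema3f to -1.67 in Sema3d. By position, Sema3d, Sema3a and Sema3e lie in a row on chromosome 5 with gaps of 0.536 and 0.423 Mb, Sema3c follows 3.32 Mb further on, and Sema3b and Sema3f lie 0.0723 Mb apart on chromosome 9, whereas Sema3g is the only class 3 gene on chromosome 14.

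Of 6 class 4 genes, transmembrane ligands used by immune, endothelial and epithelial cells, Sema4d alone passed the test. Sema4d, the lymphocyte semaphorin CD100 (chromosome 13, 51685529 to 51793747), stood at 19, 26.9 and 28.8 CPM in Vehicle and 108, 59.4 and 73.2 CPM in EPO. Each EPO library was above each Vehicle library, with EPO 1 highest, and the rise was 3.21-fold (log2 fold change 1.68, SE 0.25, edgeR adjusted p = 0.00501; 1.4 to 1.86 with single libraries left out). The summed lymphocyte and macrophage markers, given above, were higher in every EPO library than in any Vehicle library. Ptprc, which leukocytes in general express, made up most of the lymphocyte sum. It stood at 31.7, 46.7 and 48.1 CPM in Vehicle and 142, 103 and 108 CPM in EPO. The lymphocyte sum is therefore not a measure of lymphocytes alone. Only 2 of the 10 genes in that list (Ptprc and Cd5) passed on the higher side, and 7 overlapped between the groups. Of 10 macrophage markers 1 passed on the higher side, and Cd163 passed on the lower side. Sema4b was nearly level, with 31.2, 31.4 and 30.3 CPM in Vehicle and 33.9, 33.4 and 33.9 CPM in EPO. Although its groups did not overlap, its log2 fold change was 0.12 (95% interval -0.11 to 0.36, edgeR adjusted p = 0.416). Sema4a, which acts between dendritic cells and T cells, overlapped between the groups (27.1 to 35 and 24.7 to 42 CPM, log2 fold change 0.11, 95% interval -0.36 to 0.59). Sema4c, a ligand of Plxnb2, had 25.3 to 41.1 CPM in Vehicle and 38.4 to 51.7 CPM in EPO (log2 fold change 0.49, edgeR adjusted p = 0.123). The low genes Sema4f and Sema4g leaned opposite ways, at 0.505 to 1.55 against 1.43 to 2.83 CPM (1.10, adjusted p = 0.132) and at 4 to 5.08 against 2.29 to 3.22 CPM (-0.73, adjusted p = 0.0634, and 0.0246 in DESeq2).

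Class 5 semaphorins carry thrombospondin repeats beside the sema domain. Sema5a (chromosome 15, 32244810 to 32696341) stood at 84.7, 75 and 71.8 CPM in Vehicle and 20.8, 20.5 and 27.8 CPM in EPO. The gap between the groups was wide against the spread within them, and the fall of 3.35-fold was the deepest of the 31 genes (log2 fold change -1.74, SE 0.16, edgeR adjusted p = 0.00153; -1.90 to -1.66 with single libraries left out). Sema5b was low, with 1.28 to 1.87 CPM in Vehicle and 1.35 to 2.79 CPM in EPO, and its groups overlapped (log2 fold change 0.39, 95% interval -0.42 to 1.20, edgeR adjusted p = 0.451).

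Class 6 genes encode transmembrane ligands of A-type plexins, and the EPO libraries lay above the Vehicle libraries in all 4, with 3 called higher. Over all genes tested, 22.9% lay above in this way and 12.9% were called higher. Sema6d, which signals with Plxna1 in the developing heart (chromosome 2, 124089969 to 124667770), stood at 16.5, 16.1 and 15.4 CPM in Vehicle and 32, 34.8 and 24.8 CPM in EPO. It rose 1.91-fold (SE 0.15 on the log2 scale, edgeR adjusted p = 0.00671, and 0.054 without EPO 1 and EPO 2). Sema6a (chromosome 18, 47235598 to 47368870) rose 1.58-fold, from 14.9, 12.8 and 12.9 CPM to 19.3, 22 and 22.9 CPM (edgeR adjusted p = 0.0153), a small rise with little spread in either group. Without Vehicle 2 or Vehicle 3 its adjusted p was 0.0672 and 0.0574. Sema6b (chromosome 17, 56123085 to 56140343) was highest in EPO 1, with 18.9, 22 and 23.4 CPM in Vehicle and 81.5, 29.3 and 37.2 CPM in EPO. Its log2 fold change of 1.20 just passed (SE 0.36, edgeR adjusted p = 0.0494). Without EPO 1 the log2 fold change was 0.62 and the call held. Sema6b missed the threshold without Vehicle 1, Vehicle 2, Vehicle 3 or EPO 3 (adjusted p from 0.0529 to 0.161). The threshold was also missed in limma-voom (0.0824) and with DESeq2 size factors as scaling (0.0523). Sema6c was likewise highest in EPO 1, at 54.9, 22.4 and 21.9 CPM in EPO against 20.9, 13.8 and 18.5 CPM in Vehicle. It did not pass (log2 fold change 0.90, edgeR adjusted p = 0.123).

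Sema7a, the lipid-anchored semaphorin that signals through integrins and Plxnc1, rose most of the 31 genes. On chromosome 9, 57940112 to 57962865, it stood at 26.6, 28.3 and 27.7 CPM in Vehicle and 93.2, 134 and 99.3 CPM in EPO. The Vehicle libraries were nearly equal and all EPO libraries more than triple their level, a 3.95-fold rise (log2 fold change 1.98, SE 0.16, edgeR adjusted p = 0.00109). EPO 1 was the lowest EPO library for this gene. Without EPO 1 the log2 fold change was 2.07, in a range of 1.81 to 2.07 over all single libraries left out. Per kb of exon Sema7a moved from rank 8 to rank 3 of the 31 genes.

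**Figure D2:**
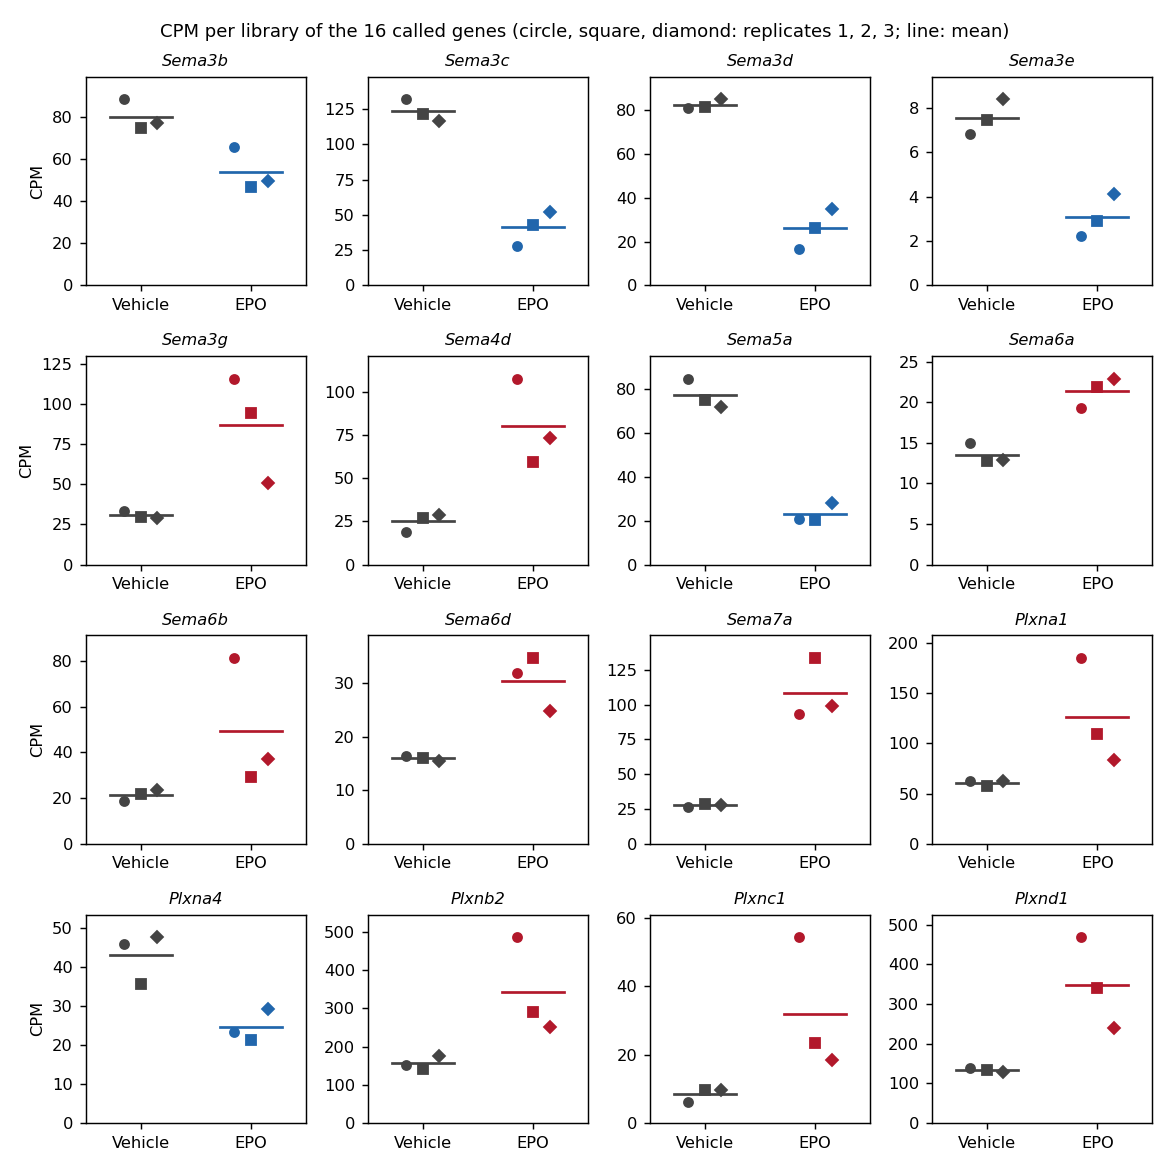
CPM of the 16 called genes in each library, each panel with its own axis from 0; circles, squares and diamonds are replicates 1, 2 and 3 of each group (the numbers do not pair libraries) and lines are means. The groups do not overlap in any panel, and Plxnc1, Sema6b and Plxnb2 have EPO 1 (54.5, 81.5 and 487 CPM) far above the other EPO libraries.

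Summed per length, the classes held different shares of semaphorin RNA in the 2 groups. The CPM per kb of exon of all 20 semaphorins together was 142, 124 and 136 in Vehicle and 176, 151 and 142 in EPO. Class 3 held 66.9%, 63.5% and 65.1% of it in Vehicle and 43.2%, 41% and 40.2% in EPO. Class 7, which is Sema7a alone, went from 5.65%, 6.91% and 6.19% to 16.1%, 26.9% and 21.2%, and class 5 from 3.25% ± 0.246 to 0.989% ± 0.17 (SD, n = 3). Class 4 held 16.8% ± 0.766 and 21.6% ± 2.8, and class 6 held 8.55% ± 0.379 and 14.6% ± 4.64, with 19.9% in EPO 1. These shares were described without a test, since the same genes entered the comparison above.

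**Figure D3:**
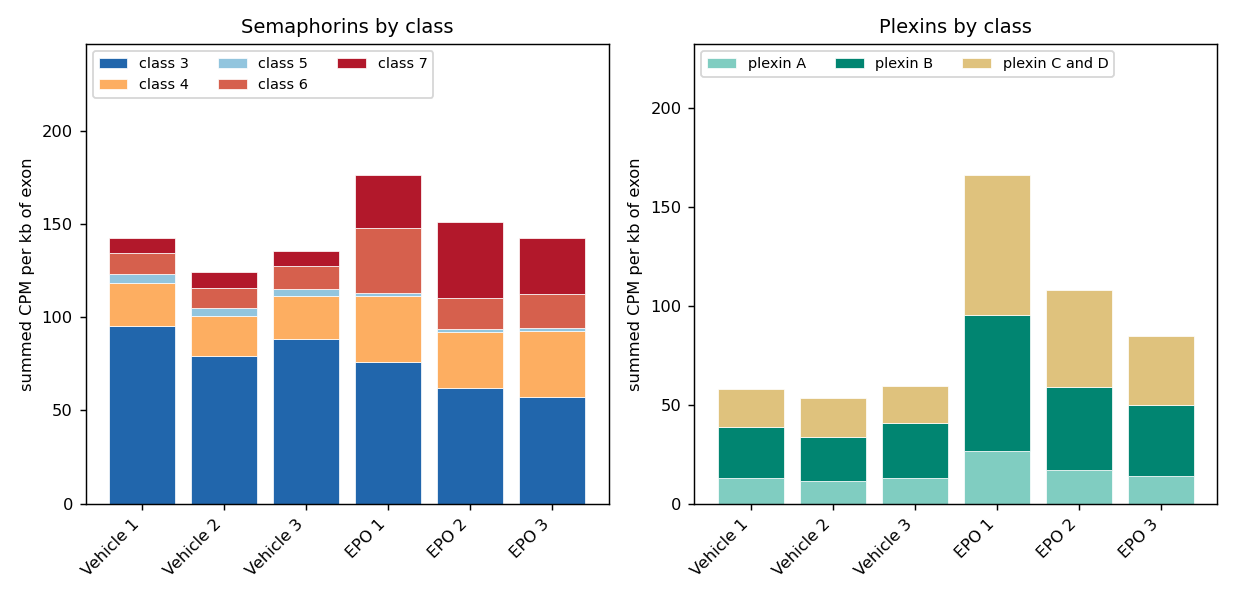
Summed CPM per kb of exon in each library, for the semaphorins by class (left) and the plexins by class (right), both axes from 0. The class 3 part is smaller in every EPO library (57.2 to 76) than in any Vehicle library (79 to 95.3), and the plexin total is higher in EPO (84.9 to 166) than in Vehicle (53.3 to 59.3).

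To show the start regions of genes that moved in opposite directions, the window from 250 bases before to 50 bases after the RefSeq start (GRCm38.p6) is printed 5′ to 3′ on the gene's strand for 2 genes that rose, Sema7a (chr9:57939862-57940161, plus strand) and Plxnd1 (chr6:115994956-115995255, minus strand), and 2 that fell, Sema5a (chr15:32244563-32244862, plus strand) and Sema3c (chr5:17574566-17574865, plus strand). Each has 1 start in the table and kept its call under all 14 alternatives run. For Sema3c the RefSeq start lies inside the GENCODE span of the gene, which begins at 17574281. Its whole window is therefore downstream of the GENCODE start. Capitals mark GC boxes (GGGCGG) and the core of the hypoxia response element (ACGTG), on either strand.
Sema7a: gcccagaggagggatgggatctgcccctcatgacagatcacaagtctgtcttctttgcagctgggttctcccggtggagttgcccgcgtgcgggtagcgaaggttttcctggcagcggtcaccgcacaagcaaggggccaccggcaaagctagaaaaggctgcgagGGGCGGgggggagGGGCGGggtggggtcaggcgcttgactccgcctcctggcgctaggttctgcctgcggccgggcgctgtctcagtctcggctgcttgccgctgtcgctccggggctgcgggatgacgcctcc
Plxnd1: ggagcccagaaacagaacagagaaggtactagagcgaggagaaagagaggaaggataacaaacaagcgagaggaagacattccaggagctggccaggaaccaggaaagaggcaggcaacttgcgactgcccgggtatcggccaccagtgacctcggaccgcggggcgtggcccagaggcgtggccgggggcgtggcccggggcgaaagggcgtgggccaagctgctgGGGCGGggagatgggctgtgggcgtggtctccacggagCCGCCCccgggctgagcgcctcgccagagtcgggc
Sema5a: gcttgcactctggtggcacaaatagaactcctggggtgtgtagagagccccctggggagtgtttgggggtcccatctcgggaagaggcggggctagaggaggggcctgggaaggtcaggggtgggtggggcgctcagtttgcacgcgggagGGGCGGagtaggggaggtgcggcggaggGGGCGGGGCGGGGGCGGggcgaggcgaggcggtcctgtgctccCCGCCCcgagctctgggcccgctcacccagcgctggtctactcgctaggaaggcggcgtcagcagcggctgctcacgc
Sema3c: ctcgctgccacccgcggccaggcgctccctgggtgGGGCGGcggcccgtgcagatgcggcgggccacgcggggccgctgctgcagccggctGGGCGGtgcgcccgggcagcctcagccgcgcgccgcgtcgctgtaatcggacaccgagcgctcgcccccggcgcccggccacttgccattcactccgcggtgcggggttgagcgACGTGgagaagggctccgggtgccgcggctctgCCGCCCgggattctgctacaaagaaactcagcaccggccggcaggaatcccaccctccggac
Windows were found for 24 of the 31 genes, 35 in all. GGGCGG was in 25 of these and in 35.7% of all 32851 windows, and the 4 windows printed hold 2, 2, 5 and 3 matches, some of them overlapping in Sema5a. ACGTG was in 8 member windows, Sema3c among them, and in 19.6% of all. TTCNNNGAA, the spacing bound by STAT5, which the EPO receptor activates, was in 1 member window, that of Sema3e, and in 8.3% of all, and TGANTCA, the AP-1 core, was in those of Sema4c, Sema4d and Sema6b and in 7.81% of all. TATAAA was in no member window and in 13.6% of all. GC boxes thus stood in windows of genes that rose and of genes that fell, and the GC content of the printed windows (67.3%, 67%, 71.3% and 75.7%) lay above the median of 52.7%. A match of letters is not evidence of binding.

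Among the 9 plexin receptors, 4 rose and 1 fell, beside 12.9% and 10.1% of all genes tested. Their summed CPM per kb was 58.2, 53.3 and 59.3 in Vehicle and 166, 108 and 84.9 in EPO, with the highest value in EPO 1. Plxnd1, the receptor of Sema3e on endothelium (chromosome 6, 115954811 to 115995005), stood at 138, 133 and 128 CPM in Vehicle and 469, 340 and 239 CPM in EPO. Every EPO library exceeded every Vehicle library, and it rose 2.62-fold (log2 fold change 1.39, SE 0.24, edgeR adjusted p = 0.00771; 1.11 without EPO 1). Plxnb2, a receptor of class 4 ligands in many tissues (chromosome 15, 89155549 to 89180788), stood at 152, 143 and 175 CPM in Vehicle and 487, 290 and 252 CPM in EPO. Its rise was 2.19-fold (log2 fold change 1.13, SE 0.26, edgeR adjusted p = 0.0195), and it missed the threshold without Vehicle 1 or Vehicle 2 (adjusted p = 0.0815 and 0.076). Plxnd1 and Plxnb2 were the most abundant plexins per length and together made up 67.7% ± 1.25 of plexin CPM per kb in Vehicle and 77.2% ± 0.579 in EPO (SD, n = 3).

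Plxnc1, the receptor of Sema7a on myeloid cells (chromosome 10, 94790866 to 94944835), had the largest rise of the plexins and the widest spread. It stood at 6.21, 9.53 and 9.73 CPM in Vehicle and 54.5, 23.3 and 18.4 CPM in EPO, so that all EPO libraries were higher and EPO 1 stood far above the rest. The rise was 3.77-fold (log2 fold change 1.91, SE 0.42, edgeR adjusted p = 0.0177), and it missed the threshold without Vehicle 1 or Vehicle 2 (adjusted p = 0.0747 and 0.0568). Without EPO 1 the log2 fold change was 1.28 and the call held. In the same EPO libraries the macrophage markers summed to 9586, 4572 and 4145 CPM and the blood endothelial markers to 1833, 1447 and 1193 CPM. The other marker lists had other orders. The EPO libraries had this order, from EPO 1 down to EPO 3, for Plxnc1 and also for Plxna1, Plxna2, Plxna3, Plxnb1, Plxnb2 and Plxnd1. A relation between plexins and either marker list was not tested.

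Of the A-type plexins, which pair with neuropilins, Plxna1 rose and Plxna4 fell. Plxna1 (chromosome 6, 89316314 to 89362620) stood at 62.6, 57.4 and 62.5 CPM in Vehicle and 185, 110 and 83.1 CPM in EPO, without overlap, and rose 2.07-fold (log2 fold change 1.05, SE 0.27, edgeR adjusted p = 0.0314). Its log2 fold change was 0.66 without EPO 1, and it missed the threshold without Vehicle 1, Vehicle 2, Vehicle 3 or EPO 2 (adjusted p from 0.0531 to 0.105). Counts on 10.7% of its exon length are uncertain because the gene model Gm26811 overlaps it on the opposite strand. Plxna4, a receptor of Sema3a and of class 6 ligands that is best known from neurons (chromosome 6, 32144268 to 32588192), stood at 45.8, 35.7 and 47.7 CPM in Vehicle and 23.3, 21.2 and 29.1 CPM in EPO. The groups did not overlap, and it fell 1.76-fold (log2 fold change -0.81, SE 0.17, edgeR adjusted p = 0.0156). Without Vehicle 1 or Vehicle 3 its adjusted p was 0.0618 and 0.0513. The summed Schwann cell and neuron markers were lower in the same libraries, but Ncam1 made up most of that sum. Ncam1 stood at 393, 305 and 347 CPM in Vehicle and 96.7, 135 and 153 CPM in EPO. Of 12 markers only Ncam1 passed (log2 fold change -1.44), and 9 overlapped between the groups. Among Vehicle libraries, Th (1.3, 0.194 and 30.4 CPM) and Dbh (3.91, 0.428 and 62 CPM) were high in Vehicle 3 alone.

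The other plexins did not pass. Plxna3 had 7.95, 6.1 and 7.35 CPM in Vehicle and 13.5, 11.7 and 8.78 CPM in EPO, all higher (log2 fold change 0.67, edgeR adjusted p = 0.0588), and it passed without EPO 3 (0.0353) and in DESeq2 (0.0279). Plxna2 overlapped, at 27.9 to 34 CPM and 25.4 to 49 CPM (log2 fold change 0.24, 95% interval -0.31 to 0.78), and its sign turned without EPO 1 (-0.06). Plxnb1, the receptor of Sema4d, was at 36.5 to 55.5 CPM and 30.6 to 48.6 CPM (-0.22, 95% interval -0.73 to 0.28). Plxnb3 was low, at 1.26 to 2.04 and 1.73 to 2.4 CPM (0.38, 95% interval -0.34 to 1.09).

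Plxdc1 and Plxdc2 encode membrane proteins with a plexin-like domain that are not plexins, and Plxdc1 is also known as a marker of tumour endothelium. Plxdc2 was the second most abundant member per length in Vehicle (22.9 CPM per kb), with 154, 164 and 160 CPM in Vehicle and 219, 192 and 166 CPM in EPO. The EPO libraries were all higher, by a log2 fold change of 0.27 that did not pass (95% interval -0.05 to 0.59, edgeR adjusted p = 0.195). Plxdc1 stood at 4.61, 6.07 and 6.04 CPM in Vehicle and 16.8, 7.91 and 7.49 CPM in EPO. It was higher in every EPO library, chiefly in EPO 1, with a log2 fold change of 0.94 (edgeR adjusted p = 0.0835) that was 0.45 without EPO 1, and it passed with no filter on low counts (0.0463) and in DESeq2 (0.0348).

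Set beside each other, known ligand and receptor pairs, not fixed before the values were seen, differed in direction. For Sema7a and Plxnc1 the log2 fold changes were 1.98 and 1.91, both called. For Sema3e and Plxnd1 they were -1.29 and 1.39, with the ligand called lower and the receptor higher. Sema4d (1.68) was called and its receptor Plxnb1 (-0.22) was not, whereas Plxnb2 (1.13), which also takes class 4 ligands, was called and its ligand Sema4c (0.49) was not. Sema6d (0.93) and Plxna1 (1.05) were both called higher. Plxna4 (-0.81), a receptor of Sema3a and of class 6 ligands, was called lower. Sema3a (-0.61) was not called, and 3 of 4 class 6 genes were called higher. Sema3f (-0.51) was not called, and Nrp2 (1.85), through which it acts, was called higher. Differences between members of a pair were not tested.

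The EPO libraries did not contribute evenly. EPO 1 was the highest EPO library for 17 of the 31 genes, 7 of the 9 plexins and 7 of the 10 genes called higher, and EPO 3 was the lowest for 7 plexins. The ratio of the highest to the lowest EPO library had a median of 1.7 over the 31 genes, against 1.23 among Vehicle libraries. Without EPO 1, 10 genes were called higher and 7 lower. Sema7a, Sema6a and Sema6d were the genes called higher in which EPO 1 was not the highest.

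**Figure D4:**
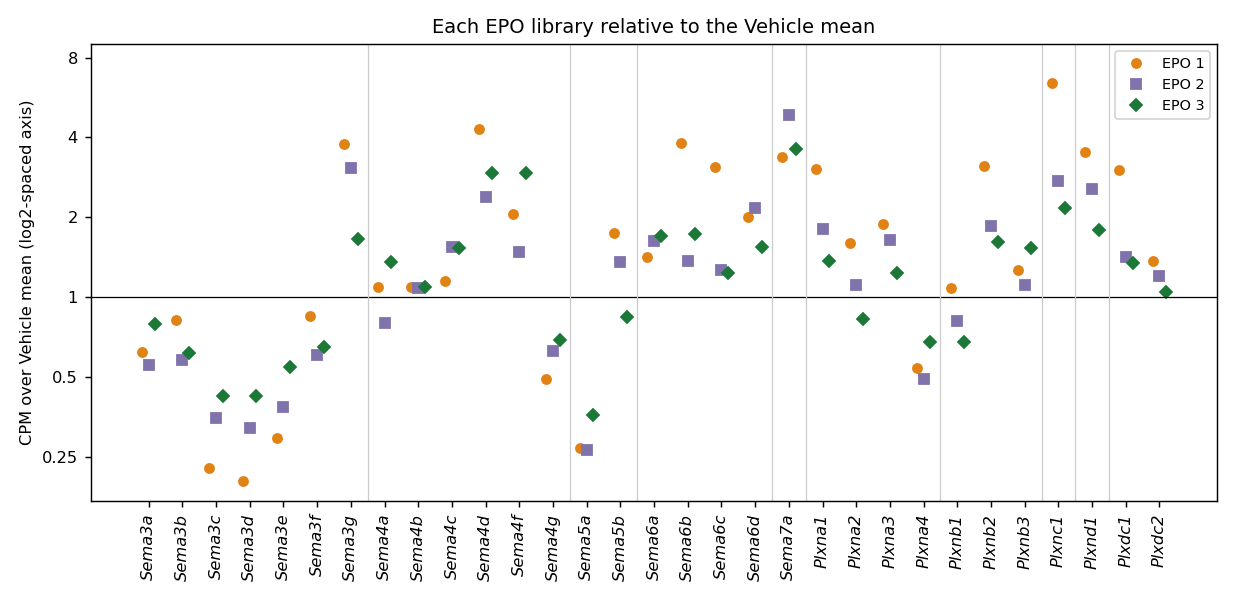
CPM of each EPO library divided by the Vehicle mean, for all 31 genes in class order, on a log axis; the line at 1 marks the Vehicle mean. EPO 1 is the highest point for 7 of 9 plexins, reaching 6.42 in Plxnc1, and is the lowest for Sema3c (0.228) and Sema3d (0.202).

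Of 47 other genes of the pathway, 46 were tested, with 13 higher and 5 lower (median log2 fold change 0.09), beside the 12.9% and 10.1% of all genes. Among 14 tested coreceptors and binding partners, 5 were higher: Ptk7, Nrp2, Kdr, Chl1 and Cd72. Ptk7, a pseudokinase that binds plexins of the A type, stood at 3.13, 4.74 and 4.83 CPM in Vehicle and 36.8, 52.9 and 39.3 CPM in EPO and rose 10.1-fold (edgeR adjusted p = 0.000836). The 2 neuropilins, which present class 3 ligands to plexins, differed: Nrp2 rose 3.61-fold, while Nrp1 was at 204, 235 and 209 CPM in Vehicle and 280, 216 and 190 CPM in EPO (log2 fold change 0.08, 95% interval -0.32 to 0.48, edgeR adjusted p = 0.763; -0.10 without EPO 1). Whether the neuropilins differ from each other in response was not tested. Kdr, the VEGF receptor that joins plexin complexes, rose 2.0-fold (41, 44.8 and 27.3 to 89.2, 76.3 and 61.2 CPM, adjusted p = 0.0173, and 0.0584 without Vehicle 1). Chl1, an adhesion molecule linked to Sema3a signalling, rose 2.98-fold (adjusted p = 0.0299), but missed the threshold without Vehicle 2, EPO 1, EPO 2 or EPO 3 (0.0512 to 0.0848). Cd72, the Sema4d receptor of B cells, was called (adjusted p = 0.0366) and lost the call without Vehicle 1, Vehicle 2, Vehicle 3 or EPO 1 (0.0697 to 0.101). Its log2 fold change of 1.86 was 1.19 without EPO 1, and 41.6% of its exon length is shared with Tesk1 on the other strand. Met, a kinase that associates with B-type plexins, did not pass (log2 fold change -0.38, 95% interval -0.97 to 0.22, adjusted p = 0.327).

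Of 24 intracellular effectors, 4 were higher (Farp1, Fyn, Fes and Sh3bp1) and 4 lower (Dpysl5, Rras, Mical3 and Arhgef12). These counts stand beside 12.9% higher and 10.1% lower over all genes tested. Farp1, an exchange factor linked to A-type plexins and class 6 ligands, rose 2.59-fold, from 32, 29.9 and 35.5 CPM to 92, 89.8 and 70.6 CPM (edgeR adjusted p = 0.00227). Fes and Fyn, kinases that phosphorylate plexins or their adaptors, rose 2.38-fold and 1.74-fold (adjusted p = 0.00399 and 0.00375). Dpysl5, a neuronal protein of the collapsin response mediator family, fell 5.89-fold, from 7.04, 4.43 and 8.42 CPM to 0.446, 1.19 and 1.74 CPM (adjusted p = 0.0114). Rras, a GTPase bound by plexins, had a log2 fold change of -0.83 (adjusted p = 0.0146, and 0.0575 without Vehicle 1), and Mical3, an oxidase of the actin-regulating MICAL family, -0.61 (0.0147, and 0.053 without Vehicle 1). Arhgef12, the RhoA exchange factor of B-type plexins (-0.42, adjusted p = 0.0401), and Sh3bp1, an effector of plexin signalling toward Rac (0.81, adjusted p = 0.0406), lost their calls with most single libraries left out, Arhgef12 in all cases but EPO 1 (0.0713 to 0.135) and Sh3bp1 in all but EPO 2 (0.0588 to 0.146), with a log2 fold change of 0.53 without EPO 1. Arhgef12 also missed the threshold with no filter (0.0936) and Sh3bp1 in limma-voom (0.0596). Counts of Sh3bp1 are uncertain, since 61.5% of its exon length is shared with Gm49510 on the same strand. The members not called included Rhoa and Rac1, the GTPases at the end of the pathway, at log2 fold changes of -0.12 and 0.07, with 51.4% of the exon length of Rac1 shared with Daglb on the other strand.

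Among 8 proteases that cleave semaphorins or their relatives, Mmp14, Adam17, Adam10 and Furin were higher and Adamts1 lower. Of all genes tested, 12.9% were higher and 10.1% lower. Mmp14, which can release Sema4d from the cell surface, rose 5.89-fold (edgeR adjusted p = 0.000836). Adam17 and Adam10, general sheddases of membrane proteins, rose 1.84-fold and 1.57-fold (adjusted p = 0.00306 and 0.0111, with 0.0673 for Adam10 without Vehicle 1). Furin, the convertase that processes class 3 semaphorins, rose 1.36-fold, from 199, 177 and 192 CPM to 243, 255 and 274 CPM (adjusted p = 0.038), and the call was lost without Vehicle 1, Vehicle 2, Vehicle 3, EPO 2 or EPO 3 (0.0853 to 0.153), with library size alone as scaling (0.0657) and with no filter (0.0766). Adamts1, reported to cleave Sema3c, fell 2.32-fold, from 169, 368 and 306 CPM to 106, 136 and 122 CPM (adjusted p = 0.0203), and missed the threshold without Vehicle 2, Vehicle 3 or EPO 3 (0.0529 to 0.0648).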

How the data were processed

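The data are 6 RNA-seq libraries of mouse aorta, made per the labels' protocols from random-primed cDNA with a NEBNext Ultra kit that is not described as marking strand. Per the submitters' processing notes CASAVA 1.8 and TopHat2 2.0.6 with mm10 were used. Not given in the sources used here are which tool counted reads, whether it used strand, and its annotation. The authors deposited whole-number counts per Ensembl gene, without normalization. Columns named Con were taken as Vehicle. Symbols, coordinates (GRCm38) and exon lengths came from GENCODE M21 by gene ID, and 47224 of 47643 IDs matched; promoter windows came from RefSeq.

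In R 4.3.3, edgeR 4.0.16 was run on the whole table (filterByExpr, TMM, glmQLFit and glmQLFTest, two-sided, no covariate beside group, Benjamini-Hochberg over the 16522 genes tested, threshold 0.05). CPM uses the TMM-scaled count of tested genes, and CPM per kb divides it by the union exon length. The SE is the log2 fold change divided by the square root of its F statistic, and 95% intervals use the test's degrees of freedom. Log2 CPM for principal components used a prior count of 2. The procedure was tested on simulated data in which far fewer genes changed than were called here. That test does not cover the scaling or the calls under a change this wide. All 31 members are named, with the coreceptors Nrp1, Nrp2 and Met and up to 4 partner genes of smallest p from each of 3 lists; Cd72, Sh3bp1, Rras, Mical3, Arhgef12, Rhoa, Rac1 and Furin were named after their values were seen. Medians and counts are given by family class. The members and lists were chosen with earlier results of these data known. Alternatives were other scalings, other filters, DESeq2 1.42.0, limma-voom (limma 3.58.1), the replicate number as a block, a threshold of 0.1 and each library left out.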

Additional observations from a re-analysis of the deposited data

How the results depend on the processing

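Of the 16 called genes among the semaphorins and plexins, 7 kept direction and call under all 14 alternatives run for each gene: Sema3g, Sema4d, Sema7a, Plxnd1, Sema3c, Sema3d and Sema5a. The other 9 lost the call under at least 1, and 5 that were not called gained it (Sema3a, Sema3f, Sema4g, Plxna3, Plxdc1); the cause was not tested. With single libraries left out, members called higher ranged from 5 to 10 and lower from 4 to 7, partners called higher from 8 to 12 and lower from 2 to 5, and all genes called from 1635 to 4281. With EPO 1 and EPO 2 both left out, chosen after seeing the data, 5 members were higher and 3 lower, 8 partners higher and 0 lower (6 at an unadjusted edgeR p under 0.05), and 1548 genes called; the lone EPO library is then assumed to vary like Vehicle. The sign turned only for genes that were not called: Plxna2 (-0.058 to 0.44 over single libraries left out, and -0.27 without EPO 1 and EPO 2), Sema4a (-0.079 to 0.29 over single libraries), Sema5b (-0.24 without both) and Nrp1 (-0.10, without EPO 1, to 0.20 over single libraries, and -0.18 without both). With a replicate block, 8 members were higher and 6 lower and 2884 genes called, and Plxnc1 (adjusted p = 0.055) and Sema6b (0.0964) were not called, nor were the partners Cd72 (0.114), Furin (0.082), Arhgef12 (0.081) and Sh3bp1 (0.074). The labels do not say that numbers pair libraries: deviations of same-numbered libraries correlated at -0.0088, -0.0098 and 0.127, and only Vehicle 3 correlated best with its own number. Depth limits the low genes Sema4f, Sema5b and Plxnb3, each under 3 CPM.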
